A study of Homo sapiens with 6 samples.

Results

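The MCM replication helicase genes analysed here are MCM2, MCM3, MCM4, MCM5, MCM6, MCM7, MCM8 and MCM10, 8 of the 20033 protein-coding genes placed on the chromosomes. MCM2 to MCM7 encode the subunits of the ring that unwinds DNA at replication forks. The origin recognition complex, CDC6 and CDT1 load this ring onto origins before S phase, and CDC45 and the GINS complex join it when an origin fires. MCM10 helps to activate the loaded ring, and MCM8 works with MCM9 in recombination repair. The genes of the ring are classic targets of the E2F transcription factors and are transcribed in proliferating cells.

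TLE3, a Groucho-family corepressor that is brought to DNA by transcription factors, was mapped by ChIP-seq in the breast cancer line MDA-MB-453. There were 2 siFOXA1 libraries, made after transient silencing of the pioneer factor FOXA1, and 2 siNS libraries without that silencing. All came from that line with the same TLE3 antibody, and the comparison addresses whether TLE3 binding requires FOXA1. The titles number the libraries within a group as biological replicates and name no cultures, and 2 input libraries, labelled MDA-MB-454, were not analysed here. Peak lists hold neither FOXA1 nor RNA levels, so they offer no check of the silencing or of the cell type.

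Members were selected by their TLE3 peaks. Peaks of the 4 lists that shared at least 1 bp were merged, and each merged region was given to the protein-coding gene whose span it overlapped or, failing that, to the gene with the nearest end within 100 kb. This gave the 8 genes 27 of 72272 regions. Because the same peaks chose the genes, their presence or absence is described without a test. With 2 libraries against 2, a two-sided exact permutation test could in any case not fall below p = 0.333. The siFOXA1 lists held 12253 and 13763 peaks and the siNS lists 45109 and 46589, each with a score per peak whose definition is not stated. Scores are therefore also given as percentiles within their own list, where the best peak stands at 100. No list holds reads, so depth is unknown and a missing peak is a peak that was not called, not a measured absence of TLE3.

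No MCM region held a siFOXA1 peak. All 27 merged regions consisted of siNS peaks alone, 15 of them in both siNS libraries and 12 in 1. These were 55.6% and 44.4% of the MCM regions. Of all merged regions, 28.7% held peaks of both siNS libraries and 47.1% of 1, without a siFOXA1 peak. In siFOXA1 1 and siFOXA1 2 the count of MCM regions was 0 each, against 20 in siNS 1 and 22 in siNS 2. For comparison, 24.2% of all merged regions held a siFOXA1 peak. Because the rule used these peaks, nothing further is read from the counts. Every one of the 8 genes had a siNS peak within 1 kb of an end, and 7 of them had a siNS consensus region there, a region where peaks of siNS 1 and siNS 2 overlap. MCM3 was the exception, with a peak in siNS 1 only. Over all protein-coding genes, 4.2% had a peak of either siFOXA1 library within 1 kb of an end, against 65.3% with a peak of either siNS library. A siFOXA1 consensus region was there at 1.85% of genes and a siNS consensus region at 55.1%.

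**Figure D1:**
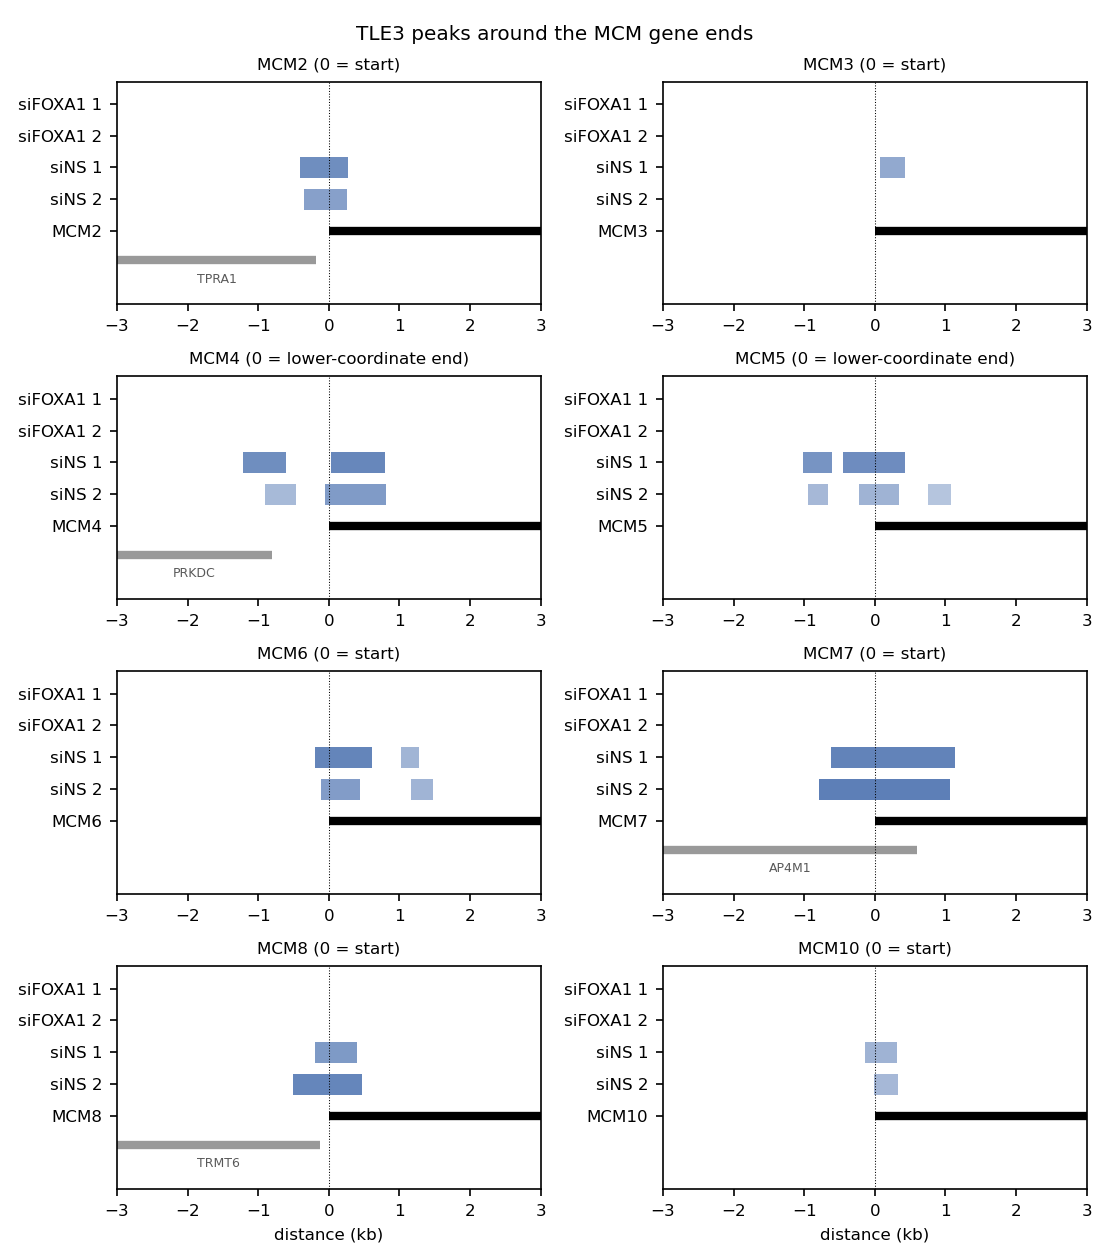
TLE3 peaks of each library (rows) within 3 kb of an MCM gene end, with position 0 at the annotated start of the gene, or at its lower-coordinate end for MCM4 and MCM5, and the x axis in kb along the gene. Blue bars are siNS peaks (darker for a higher score percentile), black bars the MCM genes and grey bars other protein-coding genes. All siFOXA1 rows are empty, and 7 of the 8 genes have overlapping siNS 1 and siNS 2 peaks at position 0 or just inside the gene.

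The promoters under these peaks show where on the genes TLE3 was called. RefSeq windows of 300 bases (GRCh38.p14), from 250 before to 50 after a gene's start, were available for 6 of the 8 genes, with 3 windows for MCM7. MCM4 and MCM5 are named only. In the windows printed here, 5′ to 3′ on the strand of the gene, capitals mark the E2F motifs TTCCCGC and TTGGCGC and the CCAAT box CCAAT, on either strand. They are shown for the 5 genes whose window overlaps a siNS consensus region, with the outermost window of MCM7, and for MCM3, added as the gene without such a region after its values were seen. The forkhead motifs TGTTTAC and TATTTAC were searched too and occur in none of the windows printed.
MCM2, chr3:127598161-127598460, plus strand: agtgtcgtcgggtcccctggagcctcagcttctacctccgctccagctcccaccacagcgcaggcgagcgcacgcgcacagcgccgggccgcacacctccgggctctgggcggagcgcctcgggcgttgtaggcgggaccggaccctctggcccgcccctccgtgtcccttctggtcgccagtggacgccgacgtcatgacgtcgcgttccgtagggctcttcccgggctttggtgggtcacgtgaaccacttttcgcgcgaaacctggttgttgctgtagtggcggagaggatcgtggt
MCM3, chr6:52284693-52284992, minus strand: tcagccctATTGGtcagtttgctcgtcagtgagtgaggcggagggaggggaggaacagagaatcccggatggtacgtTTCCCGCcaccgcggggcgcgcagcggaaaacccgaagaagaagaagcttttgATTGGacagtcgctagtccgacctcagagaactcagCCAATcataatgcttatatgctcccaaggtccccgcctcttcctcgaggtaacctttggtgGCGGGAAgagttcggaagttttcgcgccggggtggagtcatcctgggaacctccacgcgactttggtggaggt
MCM6, chr2:135876394-135876693, minus strand: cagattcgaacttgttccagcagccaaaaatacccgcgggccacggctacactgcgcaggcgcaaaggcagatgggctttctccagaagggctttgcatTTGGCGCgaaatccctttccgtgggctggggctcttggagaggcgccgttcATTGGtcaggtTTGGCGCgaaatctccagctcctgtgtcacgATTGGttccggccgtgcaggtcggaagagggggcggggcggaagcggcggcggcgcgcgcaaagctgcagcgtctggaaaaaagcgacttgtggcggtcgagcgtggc
MCM7, chr7:100101348-100101647, minus strand: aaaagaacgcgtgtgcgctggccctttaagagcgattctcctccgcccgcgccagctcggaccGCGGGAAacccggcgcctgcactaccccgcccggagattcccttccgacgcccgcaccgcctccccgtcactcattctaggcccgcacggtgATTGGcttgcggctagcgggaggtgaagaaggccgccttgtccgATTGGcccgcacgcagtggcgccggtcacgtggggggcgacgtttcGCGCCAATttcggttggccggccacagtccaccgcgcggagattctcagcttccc
MCM8, chr20:5950402-5950701, plus strand: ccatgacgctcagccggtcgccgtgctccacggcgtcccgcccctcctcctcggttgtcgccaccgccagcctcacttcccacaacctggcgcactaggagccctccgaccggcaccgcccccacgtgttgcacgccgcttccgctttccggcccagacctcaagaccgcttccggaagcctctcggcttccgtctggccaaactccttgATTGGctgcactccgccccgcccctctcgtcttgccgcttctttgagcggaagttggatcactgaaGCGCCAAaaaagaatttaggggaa
MCM10, chr10:13161308-13161607, plus strand: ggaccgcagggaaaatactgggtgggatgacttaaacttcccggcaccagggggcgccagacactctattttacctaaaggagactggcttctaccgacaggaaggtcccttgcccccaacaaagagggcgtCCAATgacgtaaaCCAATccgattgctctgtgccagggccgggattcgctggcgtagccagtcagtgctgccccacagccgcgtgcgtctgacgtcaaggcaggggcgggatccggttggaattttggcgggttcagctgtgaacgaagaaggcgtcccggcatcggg

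An E2F motif of either spelling occurred in 5 of the 8 MCM windows, against 11.5% of 22198 windows of protein-coding genes. The 8 MCM windows come from 6 genes, with several from MCM7, so they are not independent. MCM6 holds TTGGCGC at 2 places, 151 and 89 bases before its start, and MCM3 holds TTCCCGC 173 and 23 bases before. In the outermost MCM7 window 1 of each spelling occurs, and the one 5 bases before the start shares letters with a CCAAT box. MCM8 has TTGGCGC, as its reverse complement, 26 bases after the start. A CCAAT box occurred in 7 of the 8 MCM windows, against 34.7% of all windows. The MCM2 window holds none of the letters searched. Only the exact spellings given were searched, so motifs spelled otherwise would be missed in this and every other window. The forkhead motif TGTTTAC occurred in both inner windows of MCM7, which overlap each other, against 2.85% of all windows, and TATTTAC in none of the MCM windows, against 2.03%. These matches are letters in a window and do not show that a factor is bound.

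The printed windows were rich in G and C, with 57.3% for MCM3, 59.7% for MCM10, 62.3% for MCM6, 64.7% for MCM8, 67.7% for MCM7 and 68.3% for MCM2, around the median of 62.3% over all windows. Not one base of a window lay under a siFOXA1 peak. In siNS 1 and siNS 2, peaks covered all 300 bases of the MCM2 window and of each MCM7 window. They covered 251 and 300 bases of the MCM8 window, 243 and 165 of the MCM6 window and 186 and 61 of the MCM10 window. The MCM3 window was not covered in any library. Over all protein-coding windows, 0.667% overlapped a siFOXA1 consensus region and 50.6% a siNS consensus region.

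Among the subunits of the ring, MCM7 (chr7:100092728-100101397, minus strand) had the broadest and highest-ranked region at an end. Its span overlaps that of AP4M1, an adaptor complex subunit gene, with their ends 603 bp apart. Neither siFOXA1 library had a peak there, against scores of 34.1 (percentile 81.2) in siNS 1 and 40.3 (percentile 85.3) in siNS 2. The merged region, chr7:100100267-100102183, was 1917 bp wide and held all 3 annotated MCM7 starts and the AP4M1 end. It was the only MCM gene-end region that stayed in both siNS lists when every list was shortened to its 12249 best peaks.

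MCM6 and MCM4, whose products form a core with MCM7 within the ring, followed by mean siNS percentile at 66.5 and 65.9, against 83.3 for MCM7. MCM6 (chr2:135839626-135876443, minus strand) had no siFOXA1 peak, against a score of 31.3 (percentile 79.4) in siNS 1 and 13.1 (percentile 53.7) in siNS 2, in a region over its start (chr2:135875835-135876636). A weaker siNS consensus region lay inside the gene, 1027 bp from the start and just outside the 1 kb limit, with percentiles of 26.3 and 27.9. MCM4 (chr8:47960941-47978160) had no siFOXA1 peak at its lower-coordinate end, against 28.1 (percentile 77.1) in siNS 1 and 13.4 (percentile 54.7) in siNS 2. The next gene, PRKDC, which encodes the catalytic subunit of DNA-dependent protein kinase, ends 805 bp away and had a siNS region of its own that lies 467 bp from MCM4. MCM4 also had 2 regions inside the gene that were called in siNS 2 alone, with scores of 102 and 4.26.

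MCM2 (chr3:127598411-127622436, plus strand), whose product also binds histones, had a region over its start that reached the end of TPRA1, 180 bp away. MCM2 had no siFOXA1 peak, against scores of 20.8 (percentile 69.8) in siNS 1 and 11.8 (percentile 49.5) in siNS 2. Peak centres lay 66 and 50 bp upstream of the start. A second region, 7992 bp into the gene, was called in siNS 1 alone with a score of 3.47. MCM3 (chr6:52264015-52284742, minus strand), the ring neighbour of MCM5, had no peak in siFOXA1 1, siFOXA1 2 or siNS 2, and a peak in siNS 1 with a score of 7.65 (percentile 39.4). That peak ended 68 bp inside the gene and did not reach the start.

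MCM8 and MCM10, which are not subunits of the ring, both had a siNS consensus region over their starts. MCM8 (chr20:5950652-5998977, plus strand) shares its start region with TRMT6, a tRNA methyltransferase subunit gene 119 bp away. MCM8 had no siFOXA1 peak, against 12.4 (percentile 56.5) in siNS 1 and 29.2 (percentile 78.4) in siNS 2. MCM10 (chr10:13161558-13211110, plus strand) had no siFOXA1 peak, against 6.22 (percentile 28.7) in siNS 1 and 6.52 (percentile 22.9) in siNS 2, the lowest mean percentile of the 7 genes with a consensus region. MCM10 stands alone, 23250 bp from the nearest other gene end on the side of its start.

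**Figure D2:**
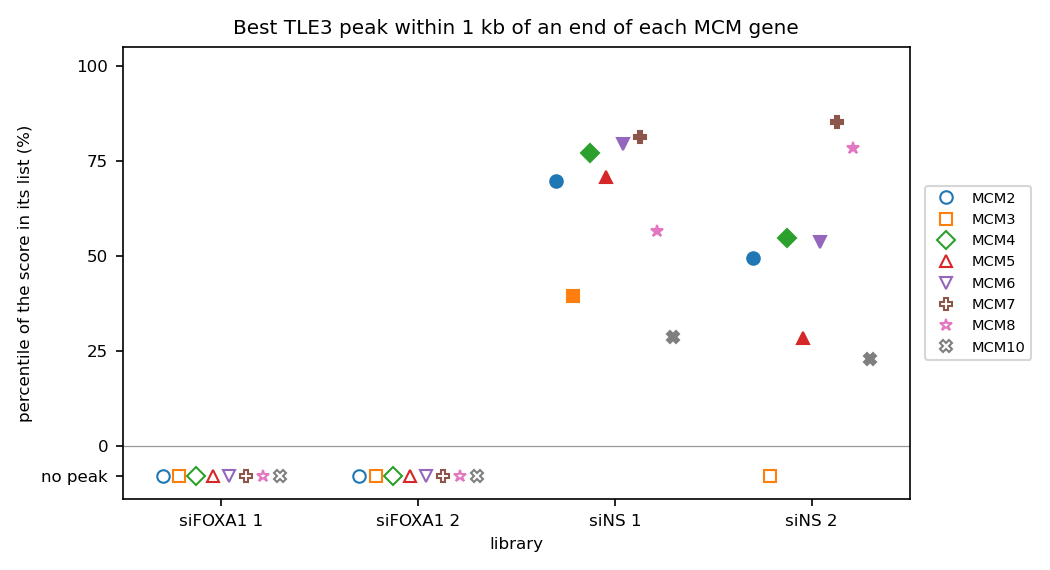
Percentile of the best TLE3 peak within 1 kb of either end of each MCM gene (y axis, percent of the library's own list) in the 4 libraries (x axis). Symbols stand for genes and open symbols on the lowest line mark genes without a peak. All 8 symbols are open in both siFOXA1 libraries, and the siNS values run from 28.7 to 81.2 in siNS 1 and from 22.9 to 85.3 in siNS 2.

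The order of the genes depended on the siNS library. In siNS 1, MCM7, MCM6, MCM4, MCM5 and MCM2 stood at 81.2 to 69.8, with MCM8, MCM3 and MCM10 below them. In siNS 2, MCM7 and MCM8 led, MCM4, MCM6 and MCM2 followed at 54.7 to 49.5, and MCM5 stood near MCM10, at 28.3 and 22.9. MCM7 was highest and MCM10 lowest of the 7 genes in both libraries, and the genes between them changed places, so their order is not resolved by these libraries. The medians of the MCM genes with a peak were 70.4 in siNS 1 and 53.7 in siNS 2, below the 75.7 and 64.5 of all genes with a peak within 1 kb of an end.

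**Figure D3:**
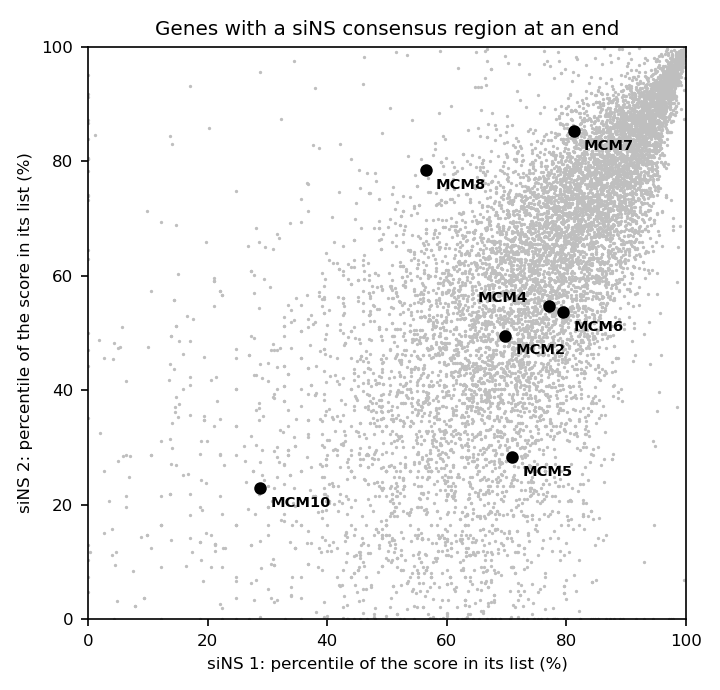
Score percentile in siNS 1 (x axis) and siNS 2 (y axis) of the best peak within 1 kb of an end, for the 11036 protein-coding genes with a siNS consensus region there (grey) and the 7 MCM genes among them (black, labelled). MCM7 lies nearest to the dense upper right corner and MCM10 at the lower left, and no MCM gene exceeds 85.3 in either library.

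MCM5 (chr22:35400140-35455031) carried most of the regions of the family, 16 of 27, and 8 of the 15 siNS consensus regions. MCM5 had 0 regions in siFOXA1 1 and in siFOXA1 2, against 11 in siNS 1 and 13 in siNS 2. Its gene-end peak was modest, with 22.0 (percentile 70.9) in siNS 1 and 7.23 (percentile 28.3) in siNS 2, in a region over the lower-coordinate end (chr22:35399690-35400572). A second consensus region lay 602 bp outside that end, with 15.9 in siNS 1 and 6.52 in siNS 2. The region 752 bp inside that end was the farthest one counted as lying at an end and was called in siNS 2 alone.

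The stronger MCM5 regions lay away from the gene's ends. Inside the gene, a consensus region 23698 bp from the nearer end scored 70.8 (percentile 93.1) in siNS 1 and 43.4 (percentile 86.7) in siNS 2. Another, 1697 bp from the higher-coordinate end, scored 60.2 (percentile 91.0) and 45.3 (percentile 87.4). Beyond that end, 4 consensus regions lay 12610, 22675, 26756 and 34164 bp away, with percentiles from 40.6 to 91.6 in siNS 1 and from 44.6 to 91.8 in siNS 2. None of these held a siFOXA1 peak. They were given to MCM5 because RASD2, the next gene on that side, begins farther off, and position alone does not tie them to MCM5. With assignment limited to 10 kb, MCM5 had 4 consensus regions.

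**Figure D4:**
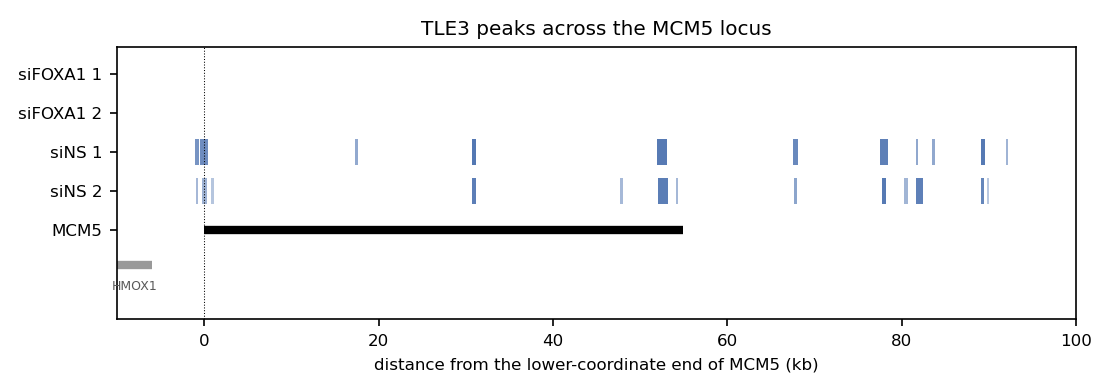
TLE3 peaks of the 4 libraries (rows) from 10 kb before to 100 kb after the lower-coordinate end of MCM5 (x axis, kb), with MCM5 as a black bar and HMOX1 as a grey bar. Blue bars are siNS peaks, darker for a higher score percentile. The siFOXA1 rows are empty and the siNS rows hold the 16 regions assigned to MCM5, the farthest 37029 bp beyond its higher-coordinate end.

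Regions with siFOXA1 peaks did occur near the MCM genes but were assigned to other genes. Of 16 merged regions within 20 kb of an MCM gene that were assigned to another gene, 4 had a siFOXA1 peak, 1 near MCM2 and 3 near MCM4. This is near the 24.2% of all merged regions with a siFOXA1 peak. In TPRA1, 6547 bp from the start of MCM2, a region scored 5.3 in siFOXA1 2 alone of the siFOXA1 libraries, against 186 in siNS 1 and 123 in siNS 2. In PRKDC, 18305 bp from MCM4, a region scored 31.2 and 29.5 in siFOXA1 1 and 2, against 115 and 141 in siNS 1 and 2. Beyond the other end of MCM4, a region scored 9.22 in siFOXA1 1 and 21.2 in siFOXA1 2, against no peak in siNS 1 and 24.0 in siNS 2. That region lies 9287 bp from MCM4 and 9211 bp from UBE2V2, a ubiquitin-conjugating enzyme variant gene, and so lay just outside the MCM set. Without siFOXA1 2 the region is shorter and MCM4 has 1 siFOXA1 region, and without siNS 1 MCM4 has 1 siNS region with a siFOXA1 peak. The remaining region, nearer to UBE2V2, scored 8.29 and 9.26 in siFOXA1 1 and 2, against no peak in siNS 1 and 4.57 in siNS 2.

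The shares of genes with a peak at an end place the MCM counts among all genes. By library, 0 MCM genes had a peak within 1 kb of an end in siFOXA1 1 and in siFOXA1 2, against 8 in siNS 1 and 7 in siNS 2. Over all genes, 2.96% and 3.04% had such a peak in siFOXA1 1 and 2, against 63% and 57.7% in siNS 1 and 2. Where an end had a siNS consensus region, 6.51% of genes also had a siFOXA1 peak at an end, so a count of 0 among 7 MCM genes is near the background. With these genes ordered by mean siNS percentile and cut into 4 equal groups, the siFOXA1 share was 1.23%, 1.85%, 3.59% and 19.4% from the lowest group to the highest. MCM5 and MCM10 were in the lowest group, MCM2, MCM4, MCM6 and MCM8 in the next, MCM7 in the one above and none in the highest, which began at a percentile of 84.1. Of all siNS consensus regions 16.9% overlapped a siFOXA1 peak, 6.25% of those within 1 kb of a gene end and 24.9% of those farther away. Of the 15 MCM consensus regions 0 did, 8 of them at an end and 7 farther away, and 6 of these 7 belonged to MCM5.

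List length bears on the siNS counts. With every list shortened to its 12249 best peaks, 0 MCM genes had a gene-end peak in siFOXA1 1 and in siFOXA1 2, against 3 in siNS 1 (MCM4, MCM6 and MCM7) and 2 in siNS 2 (MCM7 and MCM8). The share of all genes was then 2.96% and 2.77% in siFOXA1 1 and 2, against 34.9% and 20.6% in siNS 1 and 2. A siNS consensus region at an end was left at 1 MCM gene, MCM7, against 19.5% of all genes. The part of depth in these differences was not tested.

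Of the 8 genes, 4 (MCM2, MCM4, MCM7 and MCM8) have another gene's end within 1 kb, against 28.5% of protein-coding genes. A siNS consensus region at an end was found for 74.2% of genes with such a neighbour and for 47.5% of genes without one. Of the MCM genes with a neighbour 4 of 4 had one, and of those without (MCM3, MCM5, MCM6 and MCM10) 3 of 4.

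Other genes of DNA replication were examined in a list of 65 genes in 5 groups by role, written with earlier results of these data known. A siFOXA1 consensus region within 1 kb of an end was present at 1 of the 65, against the 1.85% of all genes, and a siNS consensus region at 56, against 55.1%. Counting only genes whose ends had a siNS consensus region, the median over genes of the mean siNS percentile was 65.9 for the 7 MCM genes, 70.5 for the 56 genes of this list and 71.2 for all protein-coding genes. These counts are descriptions and the replication genes were not tested against other genes.

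The loading factors had a siNS consensus region at an end of 5 of 8 genes, and none had a siFOXA1 peak at an end. Over all genes, 55.1% had such a region at an end and 4.2% a peak of either siFOXA1 library. These shares stand beside the later groups as well. In all groups only peaks within 1 kb of an end were counted, and the rest of each gene was not searched. In each group here and below, 2 genes are named for their best mean siNS percentile and do not stand for the rest. ORC2, a subunit of the origin recognition complex, scored 81.9 in siNS 1 and 35.8 in siNS 2, and CDT1, which loads the ring, 47.6 and 32.2. In contrast, ORC1 had no peak at an end, and ORC3 stood at percentiles of 7.83 in siNS 1 and 2.24 in siNS 2. Of the licensing inhibitor gene GMNN and the MCM-related genes MCM9, MCMBP and MCMDC2, all 4 had a consensus region at an end. None had a siFOXA1 peak at an end. MCM9, the partner of MCM8, scored 75.7 in siNS 1 and 24.6 in siNS 2, and MCMBP, a binding protein of the ring, 29.2 and 35.2. Firing factors had a consensus region at an end of 9 of 13 genes, with no siFOXA1 peak at an end. The kinase gene CDC7 scored 78.5 in siNS 1 and 53.9 in siNS 2, and DBF4, its activating subunit, 36.7 and 26.9.

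Replisome genes had a siNS consensus region at 25 of 27 genes, against 55.1% of all genes. Of the 27, 2 had a peak at an end in 1 siFOXA1 library, against 4.2% of all genes with a peak of either. POLE4, a DNA polymerase epsilon subunit, scored 4.47 in siFOXA1 1 and had no peak in siFOXA1 2, against 85.4 in siNS 1 and 73.4 in siNS 2. RPA3, a subunit of the single-strand binding complex, scored 6.08 in siFOXA1 2. It had no peak at an end in siFOXA1 1 or in either siNS library. POLE, the catalytic subunit of polymerase epsilon, had no siFOXA1 peak at an end, against 80.9 and 55.0 in siNS 1 and 2.

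The E2F and RB regulators had a siNS consensus region at 13 of 13 genes, against 55.1% of all genes, and the only siFOXA1 consensus region of the list. It lay at RBL2, the pocket protein p130, which has an end of AKTIP 608 bp from its own. The best peaks within 1 kb of an RBL2 end scored 29.7 (percentile 89.7) in siFOXA1 1 and 21.9 (percentile 80.8) in siFOXA1 2. In siNS 1 and siNS 2 they scored 17.3 (percentile 65.2) and 67.6 (percentile 92.9). Best peaks of different libraries need not lie in the same region. E2F2 scored 6.63 in siFOXA1 2 with no peak at an end in siFOXA1 1, against 40.2 and 18.2 in siNS 1 and 2. E2F1 and E2F3, activators of S-phase genes, had no siFOXA1 peak at an end. E2F1 scored 68.3 in siNS 1 and 60.7 in siNS 2, and E2F3 90.7 and 42.0.

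**Figure D5:**
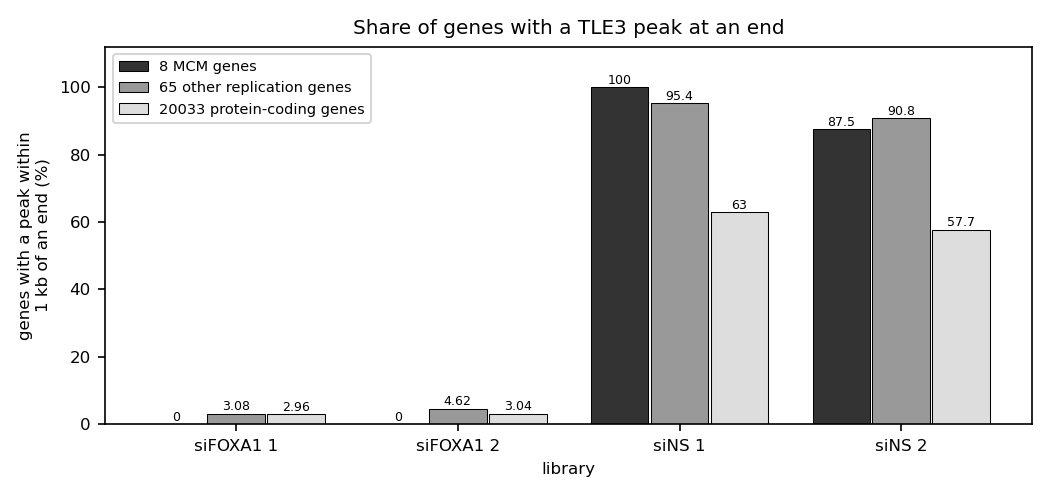
Percent of genes with a TLE3 peak within 1 kb of an end (y axis) in each library (x axis), for the 8 MCM genes (black), 65 other replication genes (grey) and all 20033 protein-coding genes (light). In siFOXA1 1 and 2 the MCM bars are at 0 and the others at most 4.62%. In siNS 1 and 2 the MCM bars stand at 100% and 87.5%, near the other replication genes at 95.4% and 90.8% and above all genes at 63% and 57.7%.

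The median pattern of the MCM genes over the 4 libraries was close to the values of many genes. Their median percentile, with 0 for no peak, was 0 in both siFOXA1 libraries, 70.4 in siNS 1 and 51.6 in siNS 2. The 5 genes nearest to it by Euclidean distance were SEC63, GFI1B, AHSA1, VIPAS39 and TOX3, at distances of 0.376 to 0.633 percentile points. In all, 1249 other genes of the 20033 protein-coding genes lay within 10 points of this median. The MCM genes themselves spread widely around it. MCM10 stood at 28.7 in siNS 1 and 22.9 in siNS 2, and MCM7 at 81.2 and 85.3. MCM3 stood at 39.4 in siNS 1 and had no peak in siNS 2.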

How the data were processed

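Each ChIP library has 1 list of peaks, without header, and the score that the authors deposited in the last of its 5 columns is not defined. Per the submitters' processing notes, Trim Galore, BWA 0.7.5a, SAMtools and MACS2 were used on build hg38. How these were set, and whether inputs entered the calls, is not stated there. Groups come from the sample titles, and the list of siFOXA1 2 carries another number in its name than in its title. Mitochondrial peaks (3 to 9 per list) were left out and positions are 1-based.

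Gene spans came from RefSeq (GRCh38.p14). Strand and start sites came with the RefSeq promoter table, for genes that have an entry. A region in several spans went to the gene whose end was nearest to its centre. Peak calls depend on depth, which is unknown, so values are ranks within a list. The members and lists were chosen with earlier results of these data known. Named replication genes are those with a siFOXA1 peak at an end and, per group, the 2 with the best mean siNS percentile. No test was made, and the replicate numbers were not used to pair libraries. Alternatives were stricter scores, larger overlap, equal list lengths, wider peaks, other distances, starts only, other assignment and leaving out each library. The code was tested on simulated data and against bedtools 2.31.1. Python 3.11.15, numpy 2.4.6, pandas 2.3.3 and matplotlib 3.10.9 were used.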

Additional observations from a re-analysis of the deposited data

How the results depend on the processing

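The MCM genes had 0 siFOXA1 consensus regions at an end under every alternative run. Instead of 7 MCM genes, 4 had a siNS consensus region at an end when only the upper part of each list, from its median score, was used, and 1 did with lists of equal length. From the median score up, 38.3% of all genes and 40 of the other replication genes had one. Under the same settings the merged regions of the MCM genes numbered 14 and 11, and their siNS consensus regions 8 and 5. With equal lengths, 20 of the other replication genes and 19.5% of all genes had a siNS consensus region at an end. The share of all genes with a siFOXA1 consensus region at an end was 1% from the median score up and 3.34% within 2.5 kb, where 2 other replication genes had one. Leaving out each library in turn gave 1.85 to 3.04% of all genes (2.96% without siFOXA1 2, 3.04% without siFOXA1 1) and 1 to 3 other replication genes (2 without siFOXA1 2, 3 without siFOXA1 1) with a siFOXA1 consensus region at an end. It gave the MCM genes 15 to 23 siNS consensus regions (23 without siNS 1), 0 to 1 siFOXA1 consensus regions (1 without siFOXA1 2) and 0 to 1 siNS consensus regions with a siFOXA1 peak (1 without siNS 1). Fewer libraries have to share a peak when 1 is left out. With starts only, 5 of the 6 MCM genes with an annotated start had a siNS consensus region there, against 57.8% of protein-coding genes and 50 of 55 other replication genes that have an annotated start. No paired analysis was possible because no result comes from a test.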

Other observations

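Over all protein-coding promoter windows, those with an E2F motif of either spelling overlapped a siFOXA1 consensus region in 0.666% of cases and a siNS consensus region in 70.3%, against 48.1% in siNS for windows without one. Their median GC content was 67%, against 61.7% without the motif, and the part of base composition in this difference was not tested. Windows with the forkhead motif TGTTTAC or TATTTAC overlapped a siFOXA1 consensus region in 0.657% and a siNS consensus region in 32.3%, against 51.6% in siNS without one. Their median GC content was 50%, against 63% without the motif, and the part of base composition was not tested here either. Over all windows, 0.667% overlapped a siFOXA1 consensus region, close to the shares of windows with an E2F or a forkhead motif.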
